A study of Rattus norvegicus with 16 samples.

Results

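Matrix genes were followed in the hippocampus of rats 24 h after traumatic brain injury (TBI), as the 59 collagens, laminins and other extracellular matrix genes found by name among the 26583 genes and transcripts that the array names. The members were all genes named Col or Lam followed by a chain number, and Fn1, Tnc, Tnr, Ncan, Vcan, Acan, Dcn, Bgn, Lum, Sparc, Sparcl1, Nid1, Nid2 and Agrn, with 79 probes in all. No probe was named Bcan or Hspg2. Each gene was read from its brightest probe, and 49 members passed the filter for testing, which asked that all arrays of 1 group or more be above background. The 10 not tested included Col17a1, Col24a1, Col4a3, Col4a4, Col6a3, Col8a1, Col8a2, Lama1 and Lama4, of which Col8a1 was above background on 8 of the 16 arrays and the others named on 0 to 3.

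RNA came from the whole hippocampus of adult male Sprague-Dawley rats, 1 rat per array. The 3 Naïve rats had neither anaesthesia nor surgery, the 2 Sham rats were anaesthetised and prepared for injury without receiving it, and the 3 TBI rats had a severe parasagittal fluid percussion injury, in which a fluid pulse strikes the exposed dura. Injured rats in the other groups were given the compound PMI-006 (250 mg/kg, 3 rats), JM6 (400 mg/kg, 3 rats) or the oestrogen 17β-estradiol, labelled E2 (33 ug/kg, 2 rats). The methods give 3 rats in each group, and 2 Sham and 2 TBI+E2 arrays were analysed here.

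The extracellular matrix is the protein and sugar scaffold outside cells. In the brain most of it is a loose mesh of hyaluronan, chondroitin sulfate proteoglycans of the lectican family and tenascins, which is condensed around some neurons as perineuronal nets. Sheets of type IV collagen, laminin, nidogen and heparan sulfate proteoglycan form the basement membranes of blood vessels and of the brain surface, whereas fibrillar collagens and small leucine-rich proteoglycans belong mainly to the meninges and to the coats of larger vessels. After injury this matrix is remodelled, and lecticans and tenascins are known components of glial scars.

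Of the 59 members, 46 have a promoter in the RefSeq table used here (build GRCr8). Printed below are the 250 bases before the annotated start, on the strand of the gene, of 4 genes that differed between TBI rats and Sham or Naïve rats and are in that table. Capitals mark matches, on either strand, to the CCAAT box (CCAAT, in 34% of 33469 promoters) and the GC box (GGGCGG, in 30.5%). The TATA box (TATAAA, in 12.9%) and the AP-1 site (TGANTCA, in 6.34%) were also searched on both strands, and neither was found in these 4 windows. The windows are chr2:22595956-22596205 (minus strand), chr5:147672846-147673095 (plus strand), chr10:40038817-40039066 (minus strand) and chr20:4817649-4817898 (minus strand).
Vcan: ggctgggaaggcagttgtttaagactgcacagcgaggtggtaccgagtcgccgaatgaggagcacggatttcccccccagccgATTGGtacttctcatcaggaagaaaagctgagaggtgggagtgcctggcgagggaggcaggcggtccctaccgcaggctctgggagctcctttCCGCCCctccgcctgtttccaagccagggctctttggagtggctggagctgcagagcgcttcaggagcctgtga
Col16a1: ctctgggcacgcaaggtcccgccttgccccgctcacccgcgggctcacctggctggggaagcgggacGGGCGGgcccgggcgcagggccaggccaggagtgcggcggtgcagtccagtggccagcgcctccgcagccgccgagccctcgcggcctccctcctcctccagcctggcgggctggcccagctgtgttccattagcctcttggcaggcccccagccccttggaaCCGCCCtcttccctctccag
Sparc: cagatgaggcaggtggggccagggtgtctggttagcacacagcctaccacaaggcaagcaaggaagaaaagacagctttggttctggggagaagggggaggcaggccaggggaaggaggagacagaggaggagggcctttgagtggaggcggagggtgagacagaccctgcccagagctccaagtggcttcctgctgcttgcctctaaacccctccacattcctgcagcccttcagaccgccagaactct
Col11a2: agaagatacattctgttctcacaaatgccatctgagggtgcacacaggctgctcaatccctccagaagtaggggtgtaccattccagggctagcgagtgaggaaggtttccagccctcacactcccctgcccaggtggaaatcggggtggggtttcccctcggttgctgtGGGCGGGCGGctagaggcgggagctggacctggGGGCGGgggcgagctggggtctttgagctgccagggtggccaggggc
The Vcan window held 1 CCAAT box and 1 GC box, that of Col16a1 2 GC boxes, that of Col11a2 3 GC boxes of which 2 overlap, and that of Sparc none of the motifs. These matches describe letters only.

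Levels are given as log2 scaled signal, the log2 of a probe's intensity divided by its array's 75th percentile, taken over probes above background. A value of 0 lies at that percentile and each unit is a doubling. Probes differ in their own brightness, so levels are compared between arrays and never between genes. In whole-tissue RNA, fewer cells of a type and less RNA per cell cannot be told apart. Adjusted p-values are those of limma, fitted over all 16 arrays with Benjamini-Hochberg adjustment over all probes tested, and a gene is called where its adjusted p is under 0.05.

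The arrays lay on 4 slides scanned in 2 sessions. Naïve, Sham and TBI arrays shared the first session, and all drug arrays were scanned in the second, so drug and session cannot be told apart. Between 16282 and 18245 probes were above background on the arrays of the first session and between 20259 and 24984 on those of the second. On 3 arrays, Naïve 2, Sham 1 and TBI+PMI-006 1, the markers of choroid plexus, the tissue that secretes cerebrospinal fluid, stood apart, with summed scaled signals of 78.4, 124.8 and 157.6 against 0.245 to 7.79 on the others, and 11 or 12 of 12 markers were above background there. Markers of meningeal fibroblasts, the collagen-producing cells of the brain's coverings, summed to 11.3, 6.22 and 11.2 on the same arrays, to 3.57 on Sham 2 and to 0.859 to 2.71 on the others. Neuronal markers of the hippocampus were above background on every array (11 or 12 of 12), as were those of astrocytes (10 of 10).

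Among the tested members, the largest spread within a group was that of the type I and type III collagens on the Naïve arrays. Col1a1, a chain of type I collagen, was at -3.26, 0.29 and -3.15 on the Naïve arrays, at -3.38 and -2.08 on the Sham arrays and at -3.39, -3.34 and -3.30 on the TBI arrays. It was at -0.96, -1.98 and -2.34 with PMI-006, at -1.87, -1.90 and -2.26 with JM6 and at -2.04 and -1.95 with E2. Naïve 2 stood more than 3 log2 units above the other Naïve arrays, and TBI+PMI-006 1 was the highest drug array. Col3a1, the chain of type III collagen, was at -2.26, 1.12 and -2.82 on Naïve arrays, at -2.87 and -1.52 on Sham arrays and at -2.57, -2.27 and -1.94 on TBI arrays. In the drug groups it was at 0.24, -1.47 and -2.24 with PMI-006, at -1.83, -1.72 and -2.31 with JM6 and at -1.95 and -1.76 with E2. Naïve 2 and TBI+PMI-006 1 were again the highest arrays of their groups, and the groups overlapped. Col1a2, the partner chain of Col1a1, was at -3.12, 0.43 and -3.16 on Naïve arrays, at -3.34 and -1.69 on Sham arrays and at -3.85, -4.19 and -3.85 on TBI arrays. All TBI arrays were thus below all Naïve and Sham arrays, but the difference was not called against either group (log2 difference -2.01, adjusted p = 0.172 against Naïve, and -1.45, adjusted p = 0.333 against Sham, limma).

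**Figure D1:**
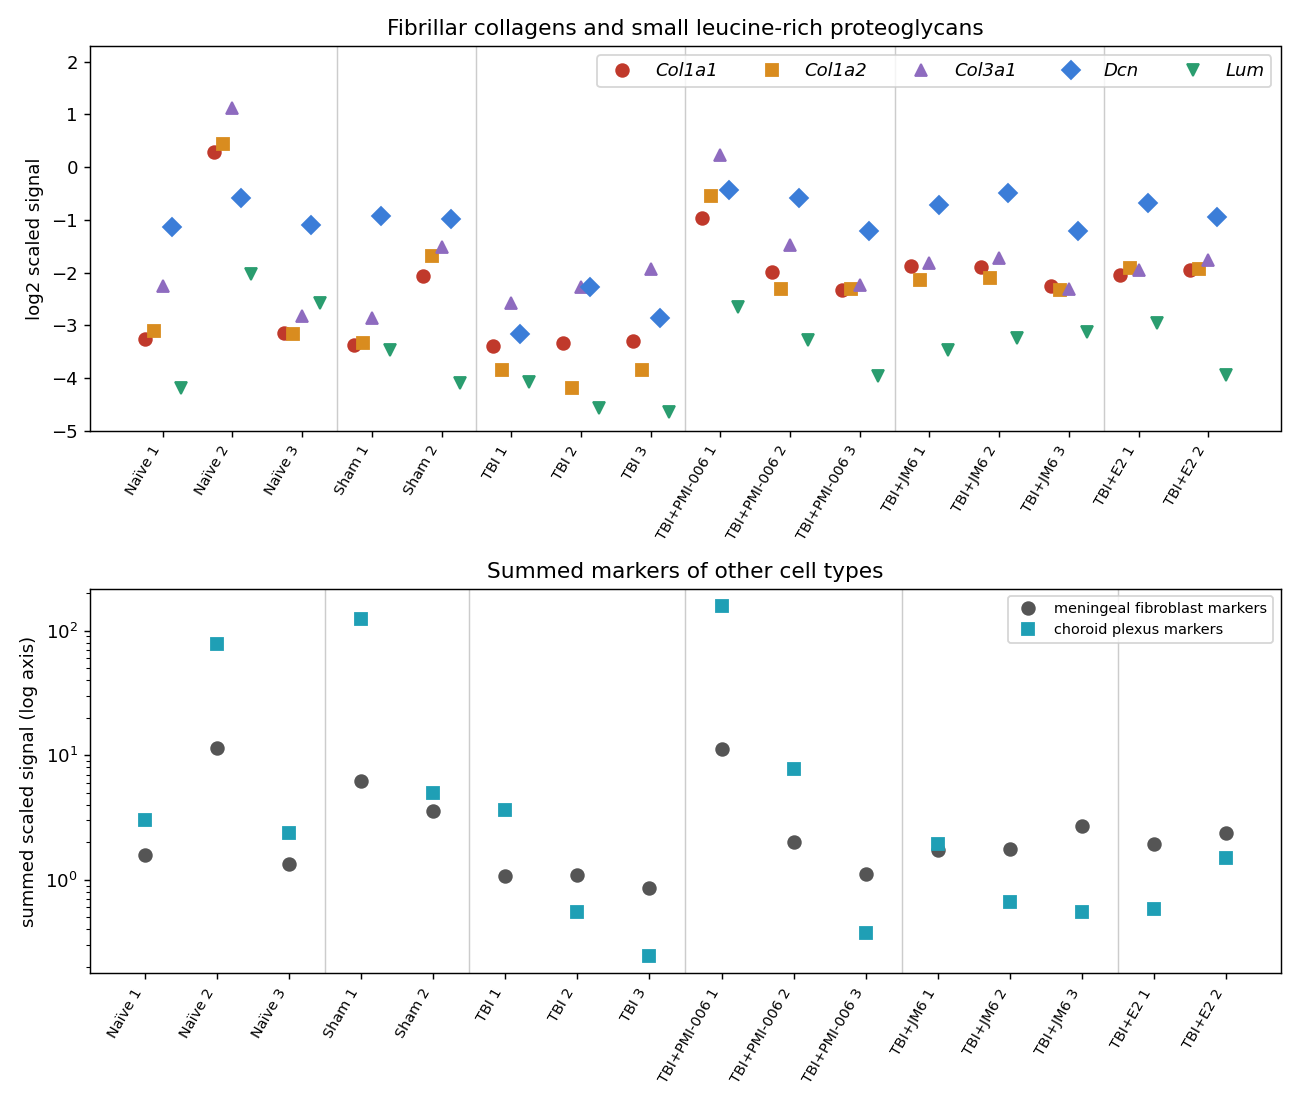
Per-array log2 scaled signal of Col1a1, Col1a2, Col3a1, Dcn and Lum (upper panels) and the summed scaled signal of meningeal fibroblast and choroid plexus markers (lower panels, log axis), by group; each point is 1 array. The collagens and both marker sums were highest on Naïve 2 and TBI+PMI-006 1 within their groups, whereas Dcn was lowest on the 3 TBI arrays.

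The comparison of TBI with Sham asks what the injury added to anaesthesia and surgery. Both Sham arrays lay on slide 1 and all TBI arrays on slide 2, so injury and slide cannot be told apart in this pair. Of the 49 tested members, 2 were higher (Vcan and Col16a1) and 1 was lower (Dcn), where 2.93% of all probes tested were higher and 6.49% lower. The median log2 difference was 0.05 over the members and -0.03 over all probes, 28 members lay above 0 and 21 below, and 9 had an unadjusted p under 0.05, where 26% of all probes did. Most collagens and laminins were therefore not called after injury in either direction.

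Dcn encodes decorin, a small leucine-rich proteoglycan that binds collagen fibrils and TGF-beta. Its log2 scaled signal was -0.93 and -0.98 on the Sham arrays and -3.16, -2.27 and -2.87 on the TBI arrays, with Naïve arrays at -1.13, -0.58 and -1.09. Every TBI array lay below every Sham and Naïve array. Dcn was 3.51-fold lower in TBI than in Sham rats (log2 difference -1.81, SE 0.31, adjusted p = 0.00827, limma) and 3.56-fold lower than in Naïve rats (-1.83, SE 0.28, adjusted p = 0.00625, limma). Its probe lies at chr7:35037331-35041132 of build rn4. Of the other 2 members of its family, Lum, encoding the corneal and connective tissue proteoglycan lumican, was at -4.20, -2.03 and -2.58 on Naïve, -3.48 and -4.09 on Sham and -4.07, -4.57 and -4.64 on TBI arrays, and was not called (TBI against Naïve -1.49, adjusted p = 0.103, limma). Bgn, encoding biglycan, was at -0.71, 0.48 and -1.03 on Naïve, -0.24 and -0.10 on Sham and -0.15, -0.28 and -0.36 on TBI arrays, and these groups overlapped.

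No meningeal fibroblast marker was called in TBI against Sham or Naïve (0 of 8 tested), although the TBI means of all 8 lay below those of both groups. Their summed scaled signal, over the 13 markers on the array, was 0.859 to 1.10 on TBI arrays, with 6 or 7 of 13 markers above background, against 3.57 and 6.22 on Sham arrays, with 7 or 8 above, and 1.34 to 11.3 on Naïve arrays, with 7 to 11 above. Aldh1a2, Foxc2, Slc22a2, Tbx18 and Zic1 were above background on no Sham or TBI array. The part of these cells in the Dcn difference was not tested. Within the Naïve group, Dcn was at -1.13 and -1.09 on the arrays with sums of 1.57 and 1.34 and at -0.58 on the array with 11.3. Without the 3 arrays rich in choroid plexus markers, Dcn was lower than in Naïve rats by -1.66 (adjusted p = 0.0291, limma) and was no longer called against Sham (-1.78, adjusted p = 0.0698), with 1 Sham array left.

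Vcan encodes versican, a lectican of the loose brain matrix that is also made by oligodendrocyte precursors. It was at -2.46 and -2.60 on the Sham arrays and at -1.69, -1.11 and -1.54 on the TBI arrays, while Naïve arrays were at -2.11, -2.25 and -2.02. The TBI arrays lay above all arrays of both other groups. Vcan was 2.12-fold higher in TBI than in Sham rats (log2 difference 1.08, SE 0.24, adjusted p = 0.0203, limma), and its second probe was also called (1.87, adjusted p = 0.0432). Against Naïve rats the difference was 0.68 and was not called (adjusted p = 0.0955, limma). The brighter probe lies at chr2:19712767-19712826 of rn4, on the minus strand.

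Col16a1 encodes a collagen of the fibril-associated class. It was at -2.15 and -1.76 on the Sham arrays, at -1.02, -0.49 and -1.19 on the TBI arrays and at -1.33, -1.91 and -1.97 on the Naïve arrays. The TBI arrays again lay above all arrays of both groups. Col16a1 was 2.08-fold higher in TBI than in Sham rats (log2 difference 1.05, SE 0.26, adjusted p = 0.0289, limma) and was not called against Naïve rats (0.83, adjusted p = 0.0629, limma). Its probe lies at chr5:149126166-149126225 of rn4.

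Fn1 encodes fibronectin, a cell-adhesive glycoprotein of plasma and of injured tissue. It was at -2.54, -0.94 and -2.81 on Naïve arrays and at -3.08 and -2.60 on Sham arrays. On the TBI arrays it was at -1.62 and -0.11, and its spot on the TBI 3 array was marked as an outlier by the scanner software and left out. The log2 difference of TBI from Sham was 1.98 (SE 0.60, adjusted p = 0.0609, limma), a 3.94-fold higher mean that was not called. It was called without TBI 1 (2.73, adjusted p = 0.0169), when 1 TBI array remained for this gene, and a second, dimmer probe of Fn1 differed by 0.07 (adjusted p = 0.938). Sparcl1, encoding the astrocyte-secreted protein hevin, was at 4.82, 3.996 and 4.54 on Naïve, 4.29 and 4.66 on Sham and 4.17, 3.88 and 3.77 on TBI arrays, and was called in neither comparison.

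On its brightest probe, no basement membrane gene was called after injury, against Sham or Naïve rats. A second probe of Lamc1 was called against Naïve rats and is given below. Col4a1, a chain of the type IV collagen network around brain vessels, was at -2.09 and -1.94 on Sham arrays and at -1.71, -0.73 and -1.003 on TBI arrays, groups that did not overlap (0.87, adjusted p = 0.102, limma). Its second probe differed by -0.34 (adjusted p = 0.859). Col4a2, the other chain of the same network, was at -4.44 and -4.21 on Sham and at -4.20, -3.86 and -4.81 on TBI arrays, which overlapped. Lamb1 and Lamc1 encode the beta and gamma chains of the most widespread laminins. Lamb1 was at -1.45 and -1.14 on Sham and at -1.59, -1.01 and -0.93 on TBI arrays, and Lamc1 was at -1.23 and -1.02 on Sham and at -0.85, -0.27 and -0.47 on TBI arrays. Lamb1 overlapped between the groups, Lamc1 did not, and neither was called. Nid1, encoding nidogen, which links laminin to type IV collagen, was at -5.40 and -5.30 on Sham arrays and at -6.08, -3.80 and -6.07 on TBI arrays, of which TBI 2 alone was above background.

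Each of these calls rests on few arrays. Dcn was lost against Sham without Sham 1 (adjusted p = 0.0524), and Vcan and Col16a1 were each lost without Sham 1, Sham 2, TBI 2 or TBI 3 (highest adjusted p = 0.11 and 0.173). With normexp background correction no member was called (Dcn -1.32, adjusted p = 0.158, limma). With the slide as a fixed block none was called either (Dcn -1.57, adjusted p = 0.428, limma). In the fit with the slide block, TBI and Sham are linked only through Naïve arrays. Why the calls were lost was not tested.

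Against Naïve rats, which had no surgery, 3 members were lower in TBI rats (Dcn, Col11a2 and Sparc) and 0 were higher. Over all probes tested, 1.73% were lower and 2.98% higher. The median log2 difference was -0.35 over the members and 0.04 over all probes, 18 members lay above 0 and 31 below, and 15 had an unadjusted p under 0.05, where 20.9% of all probes did. This comparison and that with Sham share the TBI arrays.

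Sparc encodes a collagen-binding glycoprotein made by endothelial and glial cells. It was at 3.08, 3.16 and 2.82 on Naïve arrays and at 2.37, 2.13 and 2.17 on TBI arrays, with Sham at 2.27 and 2.85. TBI and Naïve arrays did not overlap, and Sparc was 1.74-fold lower in TBI rats (log2 difference -0.80, SE 0.21, adjusted p = 0.0492, limma). Col11a2 encodes a chain of the minor fibrillar type XI collagen, best known from cartilage. It was at 0.68, -0.15 and 0.12 on Naïve arrays, at -0.17 and -0.15 on Sham arrays and at -0.52, -1.13 and -0.68 on TBI arrays. TBI arrays lay below all Naïve and Sham arrays, and the difference from Naïve was -0.997 (SE 0.22, adjusted p = 0.0256, limma). A second probe of Col11a2 was lower in TBI than in Naïve (-1.30, adjusted p = 0.00998) and Sham rats (-1.51, adjusted p = 0.00737, limma). In TBI against Naïve rats the probes of Lamc1 disagreed, with 0.16 on the brighter probe (adjusted p = 0.788) and 1.55 on the second (adjusted p = 0.00694, limma).

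Naïve 3 shared its slide with the TBI arrays, and within that slide the TBI mean differed from it by -1.67 for Dcn, -0.90 for Col11a2 and -0.60 for Sparc. Dcn was called without each of the 6 arrays in turn (-2.08 to -1.63, adjusted p between 0.00678 and 0.0278). Col11a2 was lost without Naïve 1, Naïve 3, TBI 2 or TBI 3 (highest adjusted p = 0.099), Sparc was lost without any of these or Naïve 2 (highest adjusted p = 0.149), and with the slide as a fixed block Dcn had an adjusted p of 0.124.

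**Figure D2:**
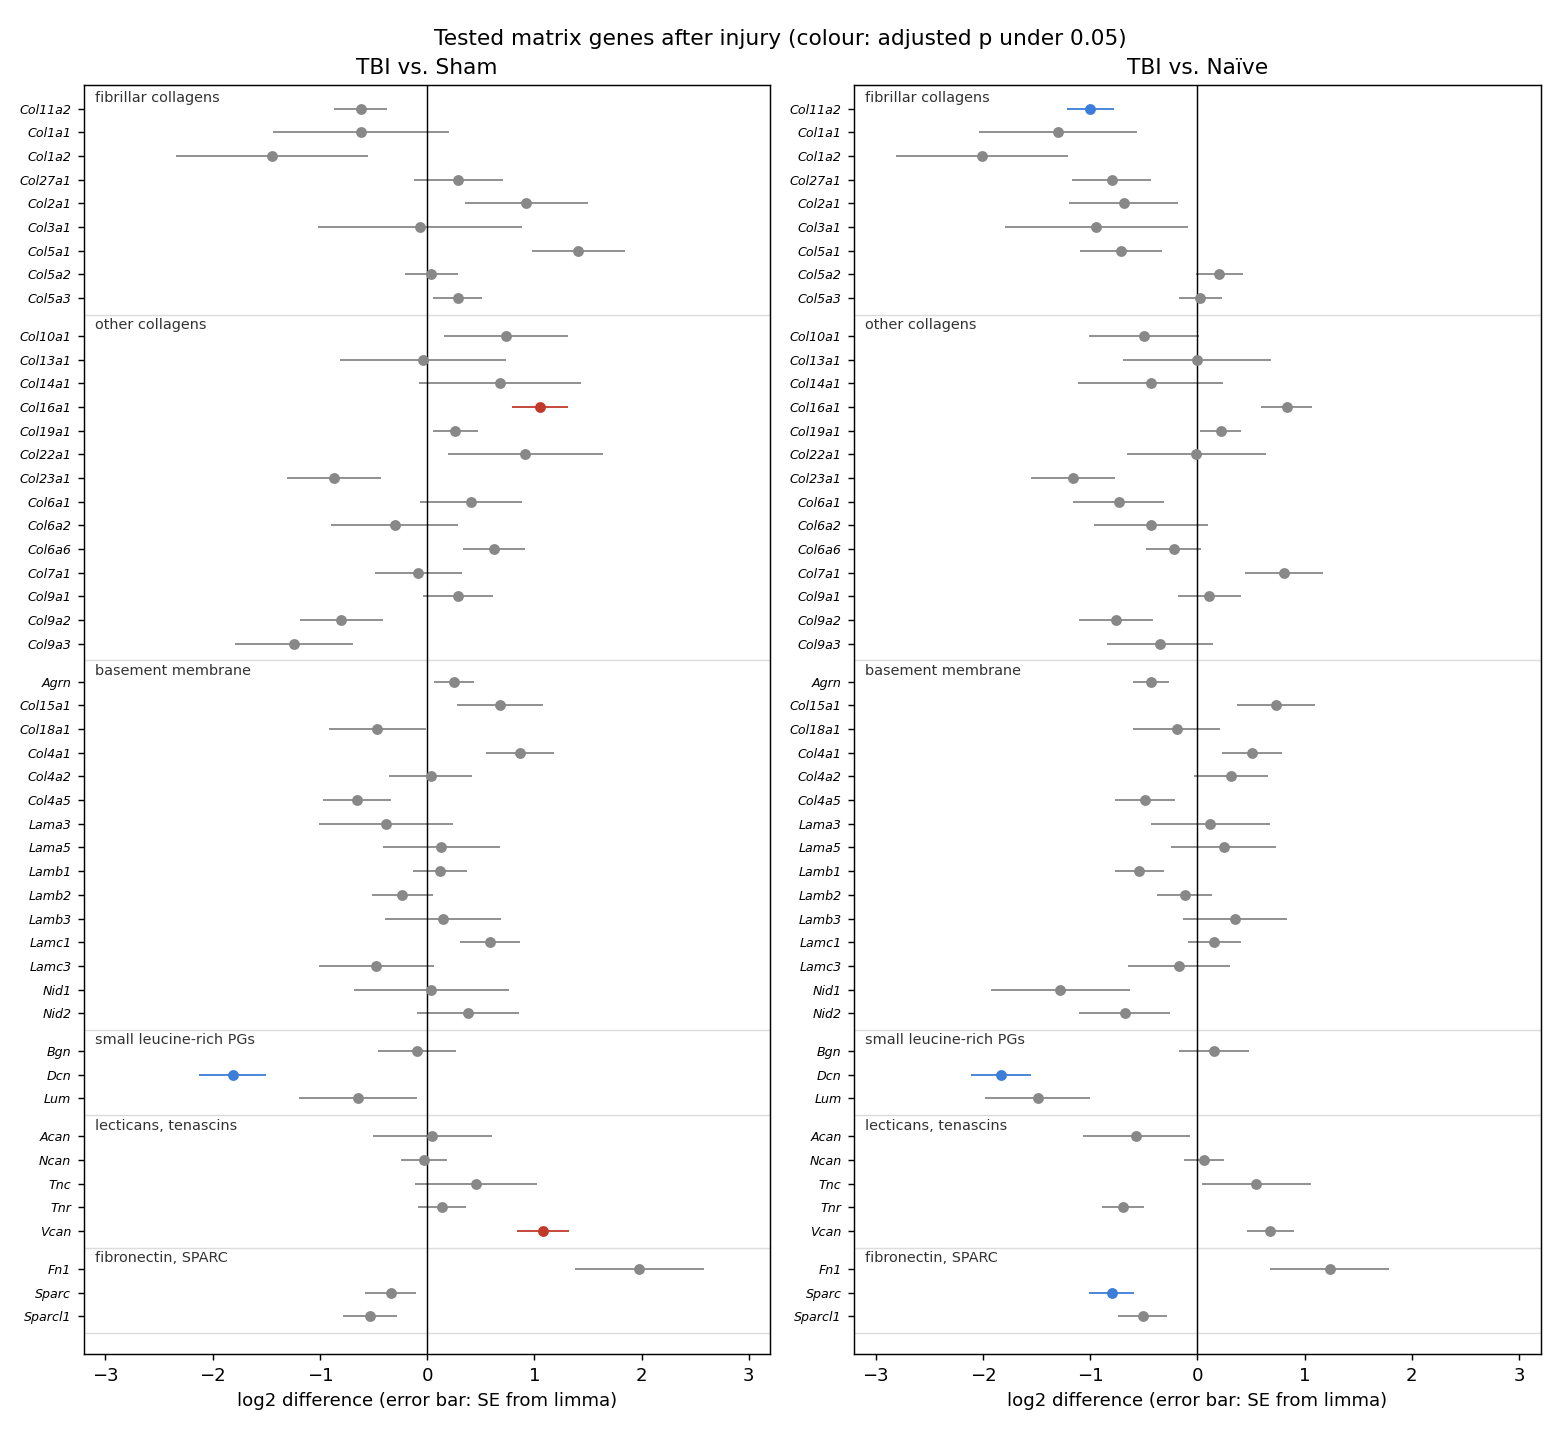
Log2 difference of TBI from Sham and of TBI from Naïve for the 49 tested matrix genes, grouped by family; bars are limma standard errors and coloured points are called at an adjusted p under 0.05. Dcn was called in both panels, Vcan and Col16a1 only in the first and Col11a2 and Sparc only in the second; whether the panels differ for these genes was not tested.

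Sham and Naïve rats differ in anaesthesia and surgery. Here 3 members were lower in Sham rats (Col5a1, Tnr and Agrn) and 0 were higher, where 1.52% of all probes were lower and 6.57% higher. The median log2 difference was -0.29 over the members and 0.06 over all probes, with 18 members above 0, 31 below, and 10 with an unadjusted p under 0.05, against 22.7% of all probes.

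Col5a1 encodes a chain of type V collagen, which starts collagen fibrils. It was at -3.55, -3.22 and -4.22 on Naïve arrays, at -5.91 and -5.66 on Sham arrays and at -5.04, -3.68 and -4.41 on TBI arrays. It was 4.36-fold lower in Sham than in Naïve rats (log2 difference -2.12, SE 0.43, adjusted p = 0.0125, limma), and the difference of TBI from Sham was 1.41 (adjusted p = 0.0578). Tnr encodes tenascin-R, an oligodendrocyte and neuron product of perineuronal nets. It was at -0.16, -0.87 and -0.45 on Naïve arrays, at -1.17 and -1.49 on Sham arrays and at -0.94, -1.31 and -1.31 on TBI arrays. Tnr was 1.78-fold lower in Sham rats (-0.83, SE 0.22, adjusted p = 0.0384, limma), and in TBI rats the difference from Naïve was -0.69 (adjusted p = 0.0664). Agrn encodes agrin, a basement membrane heparan sulfate proteoglycan. It was at 0.88, 0.88 and 0.75 on Naïve arrays and at 0.07 and 0.24 on Sham arrays, 1.61-fold lower (-0.68, SE 0.19, adjusted p = 0.0411, limma), with TBI arrays at 0.62, 0.39 and 0.19. The Sham and Naïve arrays of all 3 genes did not overlap.

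A second probe of Agrn differed by 0.05 (adjusted p = 0.932) and one of Tnr by -0.29 (adjusted p = 0.757). On slide 1, which holds both Sham arrays and Naïve 1 and 2, the differences were -2.40 for Col5a1, -0.81 for Tnr and -0.73 for Agrn. Col5a1 was called with the slide as a fixed block (adjusted p = 0.0282) and lost without Sham 1 (0.0793) or Sham 2 (0.0662), Tnr was lost without any array but Naïve 2, and Agrn without each of the 5 arrays in turn. Without the 3 arrays rich in choroid plexus markers, none of the 3 was called, Col1a2 (1.45, adjusted p = 0.0266) and Col18a1 (1.25, adjusted p = 0.0438) were called higher in the 1 remaining Sham rat, and Col1a2 was called lower in TBI than in Sham (-2.27, adjusted p = 0.0234) and Naïve rats (-0.82, adjusted p = 0.0404).

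**Figure D3:**
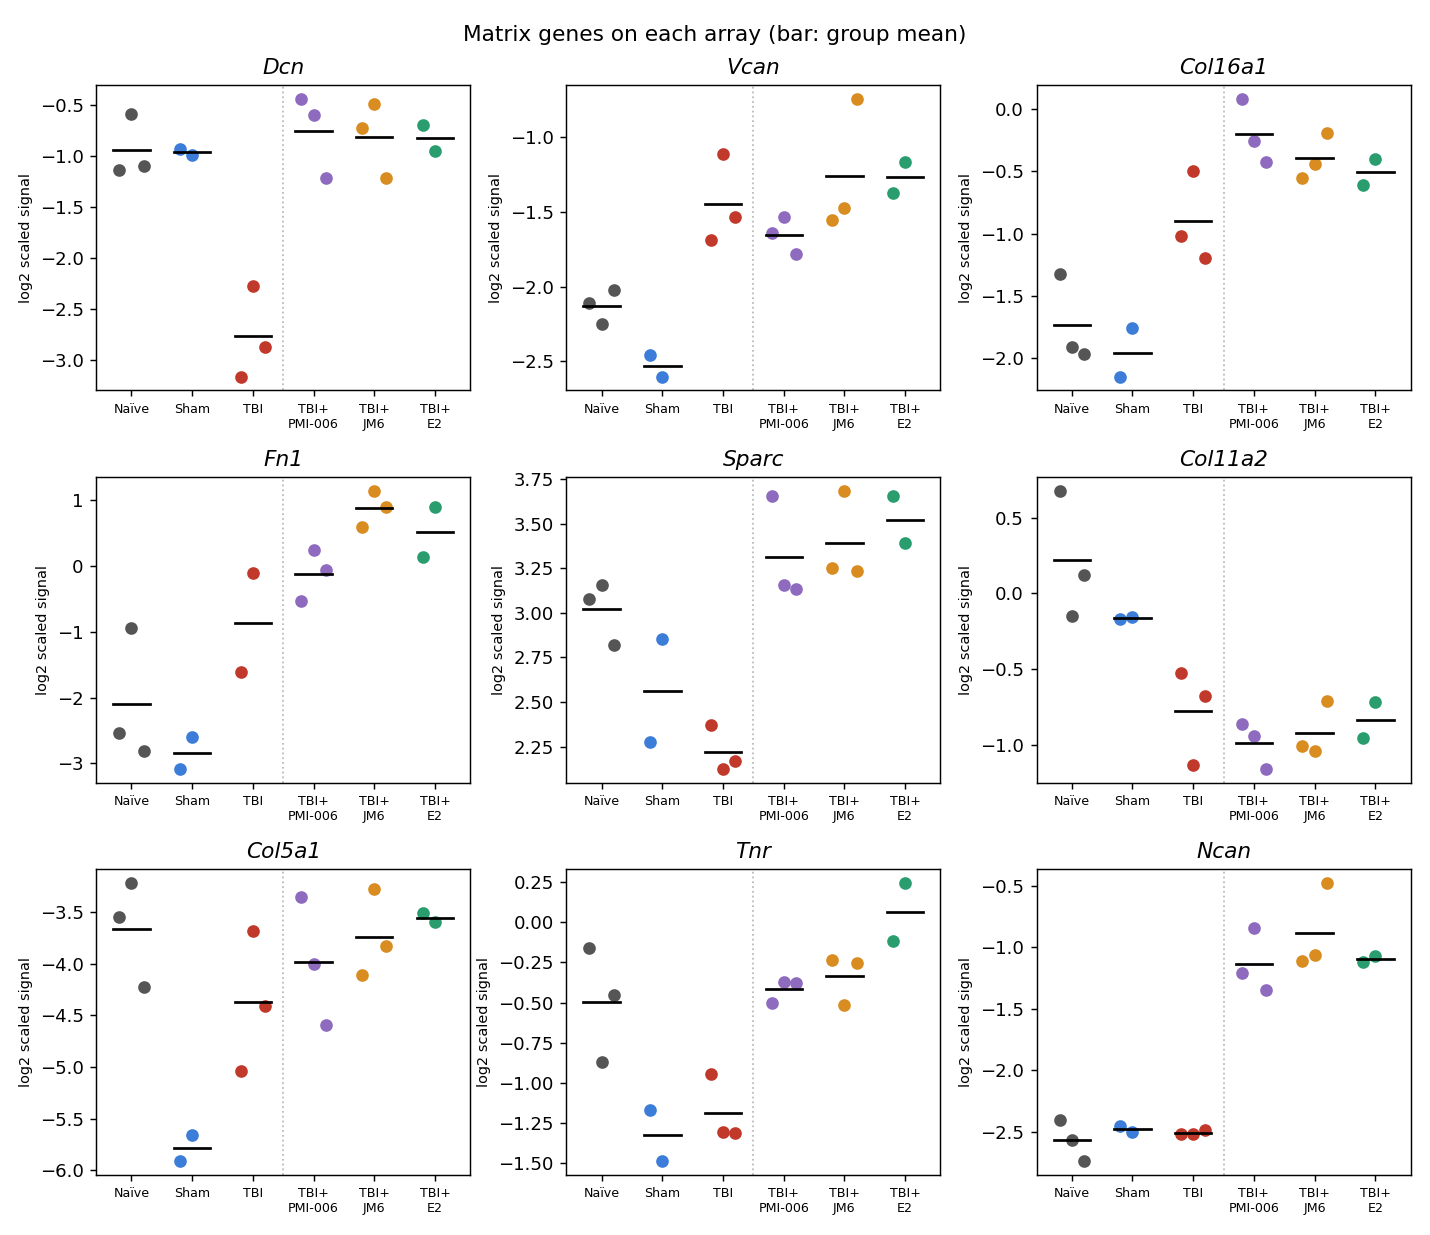
Log2 scaled signal of Dcn, Vcan, Col16a1, Fn1, Sparc, Col11a2, Col5a1, Tnr and Ncan on each array by group; points are arrays, bars are group means, and the dotted line separates the 2 scanning sessions. Dcn and Sparc were low in TBI and high on all drug arrays, while Ncan was near -2.5 on all arrays of the first session and between -1.35 and -0.48 on those of the second.

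The drug groups were each compared with TBI rats to ask what treatment changed in the injured hippocampus. These 3 comparisons share the same TBI arrays, and the drug arrays come from the other scanning session, so their shared direction is not independent. With the 75th percentile scaling, 29 of 49 members were higher with JM6 (59.2%, where 69.9% of all probes tested were), 25 with PMI-006 (51%, against 56.7%) and 23 with E2 (46.9%, against 70.2%). No member was lower, and 0.175%, 0.0482% and 0.0920% of all probes were. The median log2 difference of all probes was 0.99 with JM6, 0.79 with PMI-006 and 1.08 with E2, and that of the members was 1.17, 1.09 and 1.25. The members' shares thus lay below those of all probes, in a fit where the whole array moved up. Of the 49 members, 9 (Acan, Col10a1, Col13a1, Col14a1, Col22a1, Col2a1, Col7a1, Col9a1 and Lamc3) entered the test only because all arrays of a drug group were above background, so a difference from TBI was built into their choice. Among the other 40, 20 were higher with JM6 (50%), 17 with PMI-006 (42.5%) and 14 with E2 (35%), against 64.5%, 50.3% and 64.1% of all probes that passed in the first session.

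With quantile normalization, which puts the intensities of all arrays on 1 common distribution, the median of all probes was 0.00 with JM6 and the members' calls went both ways. With JM6, 4 members were higher and 6 lower (8.16% and 12.2%, where 13.9% and 13.3% of all probes were). With PMI-006, 5 were higher and 4 lower (10.2% and 8.16%, against 9.96% and 9.21%), and with E2, 2 were higher and 5 lower (4.08% and 10.2%, against 10.4% and 10%). The members' median was 0.03, -0.01 and -0.15. Calls below are those of the percentile scaling unless quantile normalization is named. Genes called higher under both scalings were Dcn, Lamc3, Ncan and Sparc with JM6, these and Col13a1 with PMI-006, and Dcn and Sparc with E2. Lamc3 and Col13a1 are among the 9 members that passed only through a drug group, so a difference from TBI was built into their choice. The counts under quantile normalization include those 9.

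Dcn and Sparc were called higher with each of the 3 drugs under both scalings. Dcn was at -0.43, -0.59 and -1.21 with PMI-006, at -0.72, -0.49 and -1.21 with JM6 and at -0.69 and -0.95 with E2. Under the percentile scaling, in which the whole array moved up, these Dcn values lay above those of all 3 TBI arrays. They lay within or near the range of the Naïve and Sham arrays, which were scanned in the other session. Its log2 difference from TBI was 1.96 with JM6 (SE 0.28, adjusted p = 7.81e-05), 2.02 with PMI-006 (SE 0.28, adjusted p = 0.000111) and 1.95 with E2 (SE 0.31, adjusted p = 0.000203, limma). After quantile normalization it was 1.09, 1.30 and 1.02 (adjusted p = 0.0120, 0.00786 and 0.0317, limma). In that scaling Dcn in TBI rats differed by -1.77 from Naïve and by -1.64 from Sham, larger than these drug differences. The TBI arrays are shared by all of these comparisons. Sparc was at 3.65, 3.16 and 3.14 with PMI-006, 3.25, 3.68 and 3.24 with JM6 and 3.65 and 3.39 with E2, all above the TBI arrays. Its log2 difference was 1.17 with JM6, 1.09 with PMI-006 and 1.30 with E2 (highest adjusted p = 0.000928, limma), and 0.68, 0.73 and 0.80 after quantile normalization (adjusted p = 0.0324, 0.0321 and 0.0333).

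Ncan encodes neurocan, a neuronal and astrocytic lectican of the loose matrix. It was at -2.41, -2.57 and -2.74 on Naïve, -2.46 and -2.50 on Sham and -2.52, -2.52 and -2.49 on TBI arrays. On the drug arrays it was at -1.21, -0.84 and -1.35 with PMI-006, -1.12, -1.07 and -0.48 with JM6 and -1.12 and -1.07 with E2. Ncan thus divided the arrays by scanning session, without overlap. Its log2 difference from TBI was 1.62 with JM6 (adjusted p = 1.99e-05), 1.37 with PMI-006 (adjusted p = 0.00011) and 1.41 with E2 (adjusted p = 0.000129, limma). After quantile normalization JM6 (0.76, adjusted p = 0.00523) and PMI-006 (0.66, adjusted p = 0.0137) were called and E2 was not.

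Several of the largest differences were of genes among these 9, whose values are given as a description. Where no TBI array was above background, only a lower bound can be given: the mean of the drug arrays against the lowest signal above background on each TBI array, or the probe's own where that was higher. Lamc3, a laminin gamma chain, was above background on no array of the first session and on all 8 drug arrays. It was at least 3.37-fold higher with JM6, 2.64-fold with PMI-006 and 3.58-fold with E2. Under quantile normalization Lamc3 was called with JM6 and PMI-006 and not with E2. Col10a1, the collagen of hypertrophic cartilage, was at least 2.26-fold higher with JM6, and Col22a1, a fibril-associated collagen, at least 2.94-fold with JM6 and 4.44-fold with E2. Col2a1, the main cartilage collagen, was at least 3.06-fold higher with JM6 and with E2 and 1.62-fold with PMI-006. Acan, encoding aggrecan, the lectican most typical of perineuronal nets, was above background on no array of the first session and was at least 1.73-fold higher with JM6, 2.04-fold with PMI-006 and 1.34-fold with E2. With PMI-006, Col2a1 and Acan were above background on 2 of 3 arrays. Col10a1, Col22a1, Col2a1 and Acan were not called under quantile normalization.

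Among genes with an array above background in TBI, Col13a1, a transmembrane collagen, was above the TBI mean by 3.33 log2 units with JM6, 3.41 with PMI-006 and 3.70 with E2, and Col14a1, a fibril-associated collagen, by 3.04 with PMI-006 and 2.94 with E2. Both are among the 9. Nid1, which also passed in Naïve rats, was higher by 2.81 with PMI-006 (SE 0.65, adjusted p = 0.00291, limma). For all 3 genes 1 TBI array was above background. Of these, under quantile normalization, Col13a1 alone was called, with PMI-006.

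By family, called higher with JM6, PMI-006 and E2 under the percentile scaling were 4, 4 and 3 of 5 lecticans and tenascins, 7, 6 and 6 of 15 basement membrane genes, 2, 2 and 2 of 3 small leucine-rich proteoglycans (Dcn and Bgn), 3, 3 and 3 of 9 fibrillar collagens, 11, 9 and 8 of 14 other collagens and 2, 1 and 1 of fibronectin, Sparc and Sparcl1. Of all probes tested, 69.9%, 56.7% and 70.2% were called higher. The family counts include the 9 genes that passed only through a drug group, whose difference from TBI was built in. Col10a1, Col13a1, Col14a1, Col22a1, Col7a1 and Col9a1 of these stand among the other collagens, so that family's counts are not read as a result. A set of 20 genes (40.8%) was called in all 3 comparisons and 32 (65.3%) in at least 1, where 52.9% and 76.4% of all probes were, with the TBI arrays and the session shared. The set was Acan, Bgn, Col10a1, Col13a1, Col14a1, Col18a1, Col19a1, Col22a1, Col23a1, Col2a1, Col4a2, Col4a5, Col5a3, Col7a1, Dcn, Lamc3, Ncan, Nid1, Sparc and Tnr, and it holds 8 of the 9 genes that passed only through a drug group. Outside it, Col9a1 and Col5a2 were called with JM6 and E2, Tnc and Col9a3 with JM6 and PMI-006, and Lama3 with PMI-006 and E2. Called with 1 drug were Fn1, Col6a1, Col6a2, Col15a1 and Col4a1 with JM6, and Col1a2 and Col16a1 with PMI-006.

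Fn1 was at -0.54, 0.24 and -0.07 with PMI-006, 0.60, 1.14 and 0.90 with JM6 and 0.13 and 0.89 with E2. It was above the TBI mean by 1.74 with JM6, which was called, by 0.74 with PMI-006 (adjusted p = 0.262) and by 1.37 with E2 (adjusted p = 0.0591, limma). After quantile normalization these differences were 1.13, 0.22 and 0.72, and none was called. Tnc, encoding tenascin-C, an injury-associated glycoprotein, was at -5.10, -4.42 and -5.06 on Naïve, -4.71 and -4.82 on Sham and -4.63, -3.83 and -4.47 on TBI arrays. On the drug arrays it was at -1.75, -2.68 and -3.89 with PMI-006, -3.15, -2.68 and -1.46 with JM6 and -2.74 and -3.36 with E2. Tnc was called with JM6 (1.88) and PMI-006 (1.54) under the percentile scaling and with no drug after quantile normalization. Bgn was at 0.97, 1.03 and 0.94 with PMI-006, 0.90, 0.58 and 1.53 with JM6 and 0.71 and 0.61 with E2, all above the TBI arrays, but was called with no drug after quantile normalization (0.76 with PMI-006, 0.61 with JM6 and 0.25 with E2). Lum, at -2.65 to -3.97 over the 8 drug arrays, was called with none under the percentile scaling.

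Of the basement membrane genes, Col4a1 was at -0.22, -0.62 and -1.07 with PMI-006, -0.57, -0.16 and -0.01 with JM6 and -0.63 and -0.47 with E2. It was called with JM6 alone (0.90 log2 units). Col4a2 was at -2.68, -2.31 and -3.78 with PMI-006, -3.43, -2.64 and -2.82 with JM6 and -3.14 and -3.22 with E2, all above the TBI arrays, and was called with each drug (1.37, 1.33 and 1.11). After quantile normalization neither chain was called, and the Col4a2 differences were 0.29, 0.027 and -0.42. Nid1 was above background on all drug arrays, at -1.42 to -3.14. Lamb1 was at -1.28 to -0.53 and Lamc1 at -0.79 to 0.05, both overlapping the TBI arrays. Neither laminin was called under the percentile scaling, and after quantile normalization Lamb1 was called lower with E2 (-0.70).

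Other genes lower under quantile normalization were Vcan (-0.64 with JM6, -0.88 with PMI-006 and -0.70 with E2), Col11a2 (-0.91, -0.83 and -0.86) and Col6a6, a type VI collagen chain (-1.57, -1.31 and -1.66), each with all 3 drugs. Col9a1, a chain of the fibril-associated type IX collagen, was lower with JM6 (-0.75) and PMI-006 (-1.26), Nid2, the second nidogen, with JM6 (-1.01) and E2 (-1.79), and Col27a1 with JM6 (-1.16). None of these was called lower under the percentile scaling, where Col9a1 was called higher with JM6 (1.09). The Vcan arrays there overlapped those of TBI, at -1.64, -1.53 and -1.78 with PMI-006, -1.55, -1.48 and -0.74 with JM6 and -1.37 and -1.16 with E2. On the TBI arrays Col6a6 was at -5.72 to -5.37, Nid2 at -5.97 to -5.33 and Col9a1 at -5.83 to -5.70 under that scaling. These values are near the lowest signals above background on those arrays (-5.99 to -5.94). Nid2 and Col9a1 were above background on 2 of the 3 TBI arrays, and Col9a1 passed only through a drug group. Choroid plexus and meningeal fibroblast markers were high on TBI+PMI-006 1 alone among the drug arrays. Under the percentile scaling, members were still called with each drug without it and the 2 first-session arrays. The share of all probes called in that fit is not given here, so the members' counts are left out. Leukocyte markers summed to 7.78 to 16.2 on drug arrays and 1.97 to 7.81 on TBI arrays, mural markers of vessel walls to 6.03 to 9.13 and 2.39 to 10.2, and the part of these cells in the differences was not tested.

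**Figure D4:**
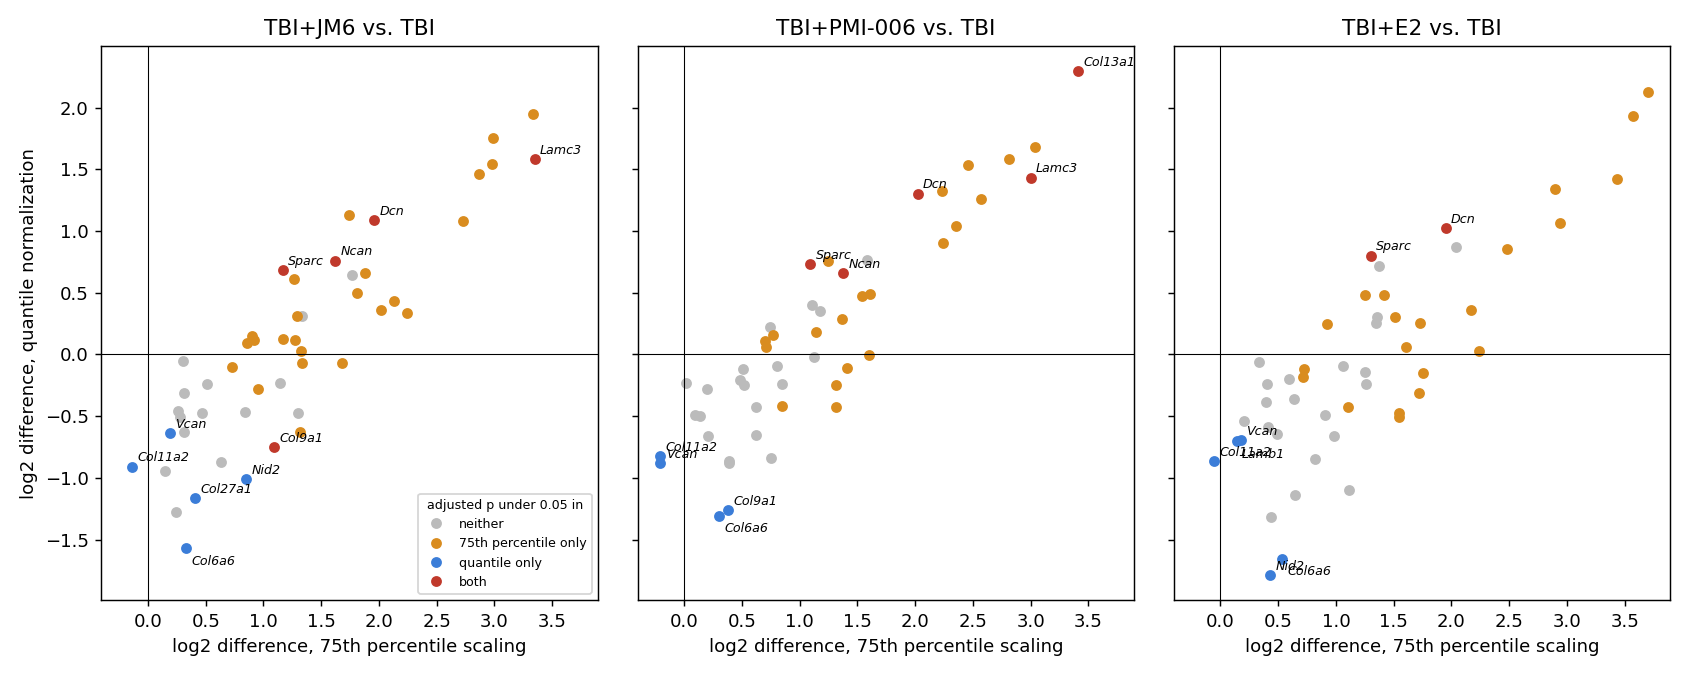
Log2 difference of each drug group from TBI for the 49 tested matrix genes, with the 75th percentile scaling on the x axis and quantile normalization on the y axis; points are coloured by whether a gene was called under neither, 1 or both. Nearly all genes lie right of 0 on the x axis and spread to both sides of 0 on the y axis; Dcn and Sparc are called under both in each panel.

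The drug groups share a session, so comparisons among them are free of that difference but not of slide. All TBI+PMI-006 arrays lay on slide 3 and both TBI+E2 arrays on slide 4, so drug and slide cannot be told apart in that pair. TBI+JM6 1 lay on slide 3, and TBI+JM6 2 and 3 lay on slide 4, so the pairs with JM6 are partly confounded with slide. No member was called in any of the 3 pairs, and 2, 0 and 2 of 49 had an unadjusted p under 0.05 in JM6 against PMI-006, JM6 against E2 and PMI-006 against E2 (limma), where 8.84%, 2.81% and 15% of all probes did. Of all probes, 0.0131%, 0.0175% and 0.110% were called in these pairs in either direction. Doses and compounds differ between the groups, so these are comparisons of treatments as given. The median gene's 95% interval reached 0.80 log2 units to either side of the difference for JM6 against PMI-006 and 0.90 for the pairs with E2, and the widest 1.85 and 2.06.

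The smallest p-values were those of Col9a1 and Col19a1, a fibril-associated collagen known from developing muscle and synapses. Col9a1 was lower with PMI-006 than with E2 by a log2 difference of -1.16 (95% interval -1.86 to -0.46, adjusted p = 0.153, limma), and Col19a1 by -0.75 (-1.21 to -0.29, adjusted p = 0.155). With JM6 against PMI-006 they differed by 0.71 (0.08 to 1.34, adjusted p = 0.512) and 0.49 (0.07 to 0.90, adjusted p = 0.494). For Fn1 the JM6 against PMI-006 difference was 1.002 (-0.07 to 2.08, adjusted p = 0.605), and for Dcn it was -0.06 (-0.66 to 0.54). Between JM6 and E2 the smallest p was that of Tnr, with a difference of -0.40 (-0.88 to 0.08, adjusted p = 1).

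Enzymes, partners and receptors of the matrix were read from 4 lists. Like the 9 members above, some of their genes entered the test only because all arrays of a drug group were above background. Among these were Adamts14, Loxl2 and Loxl4 for collagen processing and Itga5, Itga6 and Mrc2 among the receptors. A difference from TBI was built into the choice of such genes, and the drug counts below include them. Of the genes that process collagen, which hydroxylate, cross-link or cleave its chains, 23 were tested. None was called in TBI against Sham, and Fkbp10, a collagen chaperone of the endoplasmic reticulum, was higher in TBI than in Naïve rats (1.07, adjusted p = 0.0372, limma). With JM6, PMI-006 and E2, 13, 10 and 12 were higher than in TBI under the percentile scaling (56.5%, 43.5% and 52.2%), below the shares of all probes given above (69.9%, 56.7% and 70.2%). After quantile normalization 0, 1 and 0 were higher and 3, 2 and 3 lower. Lox, encoding lysyl oxidase, which cross-links collagen, was higher under the percentile scaling (3.44 with JM6 and 3.41 with PMI-006) and not called after quantile normalization (adjusted p = 0.105 and 0.104, limma).

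Of 17 tested genes of hyaluronan, link proteins and lectican processing, Ptprz1, encoding phosphacan and its receptor form, was higher in TBI than in Sham rats (0.83, adjusted p = 0.0475, limma). Hapln1, encoding the link protein that ties lecticans to hyaluronan, was lower in TBI than in Naïve rats (-1.41, adjusted p = 0.0426), at -4.46 to -2.69 against -2.47 to -2.36, as was Xylt2, which starts chondroitin and heparan sulfate chains (-0.65, adjusted p = 0.0426). Adamts4, a lectican-cleaving protease, was higher in Sham than in Naïve rats (1.37, adjusted p = 0.0386, limma). With JM6, PMI-006 and E2, 11, 10 and 11 were higher under the percentile scaling (64.7%, 58.8% and 64.7%, near or below the shares of all probes). After quantile normalization 1 was higher with each drug and 0, 0 and 1 lower. The 1 higher was the hyaluronidase Hyal1. Hyal1 was above background on no array of the first session and on all drug arrays. It thus entered the test only through the drug groups, and a difference from TBI was built into its choice. Under the percentile scaling, with every TBI array below background, its bound was at least 3.38-fold, 3.54-fold and 4.90-fold higher.

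Of 39 other matrix proteins tested, Fbln2, encoding the elastic fibre and basement membrane protein fibulin-2, was higher in TBI than in Sham rats (1.74, adjusted p = 0.0293), at -1.39 to 0.23 against -2.24 and -2.09. Reln, encoding reelin, a glycoprotein of hippocampal interneurons that guides neuronal layering, was lower in TBI than in Naïve rats (-1.20, adjusted p = 0.034, limma). No gene of this list was called in Sham against Naïve, and 19, 16 and 17 were higher with JM6, PMI-006 and E2 under the percentile scaling (48.7%, 41% and 43.6%, below the shares of all probes). After quantile normalization 2, 2 and 1 were higher and 2, 1 and 3 lower.

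Among matrix receptors, Cd44 and Sdc1 rose after injury. Cd44, encoding the main hyaluronan receptor, was at -2.89 to -2.52 on Naïve, -2.33 and -2.14 on Sham and -0.26 to 1.08 on TBI arrays. It was higher in TBI than in Sham (2.77, adjusted p = 0.00509) and Naïve rats (3.25, adjusted p = 0.00177, limma). Sdc1, encoding the heparan sulfate proteoglycan syndecan-1, was higher by 3.47 (adjusted p = 0.0322) and 3.90 (adjusted p = 0.019). Leukocyte markers were also higher, 4 of 9 tested against Sham and 3 of 9 against Naïve, with summed scaled signals of 1.97 to 7.81 on TBI, 1.25 to 1.88 on Sham and 0.873 to 1.07 on Naïve arrays, and their part in these differences was not tested. Ddr1, encoding a collagen-binding tyrosine kinase, was lower in TBI than in Sham rats (-1.65, adjusted p = 0.0098) and higher than in Naïve rats (1.04, adjusted p = 0.0436), and Sham exceeded Naïve by 2.69 (adjusted p = 0.00185), with 1 of 3 Naïve arrays above background. The glypicans Gpc5 (-1.04 against Sham, adjusted p = 0.0403) and Gpc3 (-1.60 against Naïve, adjusted p = 0.0156) were lower in TBI. Of the 22 receptors tested, 16, 10 and 13 were higher with JM6, PMI-006 and E2 under the percentile scaling (72.7%, 45.5% and 59.1%, where 69.9%, 56.7% and 70.2% of all probes were). After quantile normalization 1, 1 and 2 were higher and 2, 0 and 1 lower. In the pairs of drugs no gene of the 4 lists was called.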

How the data were processed

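RNA of 16 rat hippocampi was measured on single-colour rat arrays. The deposited spot intensities came from the authors' Agilent Feature Extraction software (version 9.5.3.1), which removed background and spatial trends, and were not scaled between arrays. The value table deposited by the authors held, as set against the scanner files (r 0.981 to 0.999), each intensity as a ratio to its array's 75th percentile, on a linear scale; centring per gene was not seen, and it served as an alternative. Outlier spots were dropped, spots averaged per probe (30367), divided by the 75th percentile of probes above background and put on the log2 scale. A probe was above background where at least 50% of its spots were. Probes above background on every array of a group (22827) were fitted with limma 3.58.1 in R 4.3.3, without covariates, as tested on simulated data. The simulated data held no slide or session effect, so that test does not bear on either.

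The members, gene lists, markers and rule for named genes (every called member, with full statistics for the 4 largest changes where over 8 were called) were chosen with earlier results of these data known. One untested member is not reported here. The alternative without Naïve 2, Sham 1 and TBI+PMI-006 1 was chosen after seeing the data. The number of arrays, 2 or 3 per group, limits the precision. Probes above background numbered 16282 to 17829 on Naïve, 17187 to 18245 on Sham, 16404 to 18217 on TBI, 20259 to 22822 on TBI+PMI-006, 22023 to 24984 on TBI+JM6 and 22892 to 24090 on TBI+E2 arrays. RNA was amplified with 1 of 2 kits, and which rat had which kit is not given in the sources used here.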

Additional observations from a re-analysis of the deposited data

How the results depend on the processing

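Counts are of the 49 members called. In TBI against Sham, 3 were called, 0 with normexp background correction, the slide as a fixed block or the methods' t-test after adjustment, 6 (5 higher, 1 lower) with the percentile over all probes, 5 (4 higher, 1 lower) from the authors' values, 5 with the slide as a random block, with the replicate block or by the methods' t-test unadjusted, at p under 0.05 and more than 1.2-fold, and 1 without the 3 arrays rich in choroid plexus markers. In TBI against Naïve, 3 were called, 0 with normexp, the fixed block or the adjusted t-test, 5 with the random block or with probes above background on all 16 arrays, and 8 with the unadjusted t-test. In Sham against Naïve, 3 were called, 0 with normexp or the adjusted t-test, 5 with the percentile over all probes, and 1 with no filter or with the mean of a gene's probes. With JM6, 29 were called, 9 with normexp, 10 with quantile normalization or the authors' values (4 higher, 6 lower in each), 19 with the percentile over all probes (14 higher, 5 lower) and 18 with probes above background on all arrays. With PMI-006, 25 were called, 5 with normexp, 9 with quantile normalization or the authors' values (5 higher, 4 lower in each), 16 with the percentile over all probes (11 higher, 5 lower), 13 with probes above background on all arrays and 10 with the adjusted t-test. With E2, 23 were called, 4 with normexp, 7 with quantile normalization or the authors' values (2 higher, 5 lower in each) and 14 with the percentile over all probes (10 higher, 4 lower). Between drugs 0 were called, but 2 with no filter and 1 with the random block in PMI-006 against E2, and 3 and 5 with the unadjusted t-test in JM6 and E2 against PMI-006. The causes of these moves were not tested. The equal drug counts from quantile normalization and from the authors' values are not read as independent results, since percentiles were equal across the authors' columns. Fn1 in TBI against Sham turned from 1.98 to -0.066 (adjusted p = 0.966, limma) with the mean of its probes.

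Leaving out each array in turn gave 0 to 8 calls in TBI against Sham (0 without Sham 1 and 8 without TBI 1), 1 to 5 in TBI against Naïve (1 without Naïve 3 or TBI 3, 5 without TBI 1), 0 to 2 in Sham against Naïve (0 without either Sham array, 1 without Naïve 1), 25 to 29 with JM6, 18 to 29 with PMI-006, 15 to 27 with E2 (15 without TBI+E2 2) and 0 between drugs. Deviations of same-numbered arrays were at most weakly correlated (-0.185 to 0.183 over 36 pairs, 3 above 0.1). With 2 or 3 arrays per group, these correlations cannot exclude that the numbers pair rats. The replicate block gave 5 calls in TBI against Sham, 3 in TBI against Naïve, 2 in Sham against Naïve and 29, 25 and 24 with JM6, PMI-006 and E2. The fixed slide block could not be fitted for drug against TBI. Members not above background in a group have only a bound there.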
